A study of Mus musculus with 4 samples.

Results

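The HoxB cluster is a row of 10 homeobox genes on mouse chromosome 11 (Hoxb13, Hoxb9, Hoxb8, Hoxb7, Hoxb6, Hoxb5, Hoxb4, Hoxb3, Hoxb2 and Hoxb1, in order of increasing coordinate), all transcribed from the plus strand. Open chromatin over these genes was described from ATAC-seq, in which a transposase inserts adapters into accessible DNA and regions rich in insertions are called as accessible. A region belonged to the cluster when its centre lay closest to a transcription start of a HoxB gene, among all starts of protein-coding genes, or within 2.5 kb of such a start. This rule took 32 of the 42613 regions listed at embryonic day 9.5 (E9.5) and 10 of the 46765 regions listed at E10.5, every one of them by its nearest start. The cluster was selected on the overlaps of these same lists, which had shown it to differ between the stages. Its scores and overlaps are therefore given as a description, and no test was made.

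All embryos were wild-type NMRI mice with no treatment and no engineered allele. The E9.5 group held 2 replicates, each a pair of forelimb buds of a single embryo with the adjoining piece of trunk, and the protocol gives their age as E9.75. The E10.5 group held 2 replicates, each a pair of forelimb buds of a single embryo without trunk, although the tissue label also names hindlimb buds. The submitters merged the replicates of each stage into 1 combined list, so there is no spread between replicates for any value below. Trunk tissue came with the E9.5 samples alone, and stage and trunk cannot be told apart in any comparison of the lists.

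Hox genes encode homeodomain transcription factors that give cells their position along the head-to-tail axis. In each cluster the genes at the 3' end, such as Hoxb1, are used first and reach furthest towards the head, and those at the 5' end are used later and more towards the tail. HOX proteins bind DNA together with PBX and MEIS cofactors, CDX proteins and retinoic acid act upstream of many Hox genes in the trunk, and early forelimb patterning uses HoxB genes together with those of the other clusters.

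The following sequences show the kinds of regions on which the account rests. Capitals mark matches on either strand to TGATTNAT (PBX-HOX), TGACAG (MEIS and PKNOX), TTTATG (CDX) or GGCGCC (a SMAD GC box), and every sequence is the plus strand of mm9, read 5' to 3'. The first is the 300 bp just before an annotated start that was covered at E9.5 alone (Hoxb1, chr11:96226766-96227065). The others are the central 300 bp of the highest-scoring E10.5 region of the cluster (in Hoxb4, chr11:96180447-96180746) and of the outermost region found at both stages (downstream of Hoxb1, chr11:96268815-96269114). In the outermost sequence the PBX-HOX and the CDX match share bases.
Hoxb1 start, E9.5 alone: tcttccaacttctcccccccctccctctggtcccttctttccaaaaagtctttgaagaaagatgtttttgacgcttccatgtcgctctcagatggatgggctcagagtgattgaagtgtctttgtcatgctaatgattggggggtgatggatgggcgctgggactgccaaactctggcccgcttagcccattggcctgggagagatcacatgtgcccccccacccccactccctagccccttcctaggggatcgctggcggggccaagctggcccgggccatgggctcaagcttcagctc
Hoxb4 region, both stages: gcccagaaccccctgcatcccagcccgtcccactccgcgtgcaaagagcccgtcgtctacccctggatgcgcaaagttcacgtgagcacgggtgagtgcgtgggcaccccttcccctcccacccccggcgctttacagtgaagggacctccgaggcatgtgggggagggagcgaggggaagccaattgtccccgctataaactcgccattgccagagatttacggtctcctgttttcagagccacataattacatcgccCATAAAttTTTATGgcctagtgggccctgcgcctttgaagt
Hoxb1 outermost region, both stages: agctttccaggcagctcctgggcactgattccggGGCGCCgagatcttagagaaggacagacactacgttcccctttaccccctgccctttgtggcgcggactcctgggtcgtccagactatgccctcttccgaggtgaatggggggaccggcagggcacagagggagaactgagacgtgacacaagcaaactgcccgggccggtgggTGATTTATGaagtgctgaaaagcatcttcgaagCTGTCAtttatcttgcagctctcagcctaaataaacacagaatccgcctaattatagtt

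At E9.5 every HoxB gene had an accessible region, and at E10.5 only Hoxb6, Hoxb5, Hoxb4, Hoxb3, Hoxb2 and Hoxb1 did. Of the 32 E9.5 regions, 23 overlapped no E10.5 region by even 1 bp, a share of 71.9% (95% Wilson interval 54.6 to 84.4), where 29.9% of the whole E9.5 list did so. Of the 10 E10.5 regions, 0 lacked an E9.5 partner, which allows a share of up to 30.0% by the rule of 3 counts (27.8% by the Wilson interval), where the share over the whole E10.5 list was 35.0%. The cluster thus held regions found at E9.5 alone and regions found at both stages, and none of the 10 was found at E10.5 alone. Regions overlapping nothing in the other list are called E9.5-specific here, and the others shared. A smaller number of cells with an open region and a less open region in each cell cannot be told apart in such bulk material. The intervals cover counting error only.

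**Figure D1:**
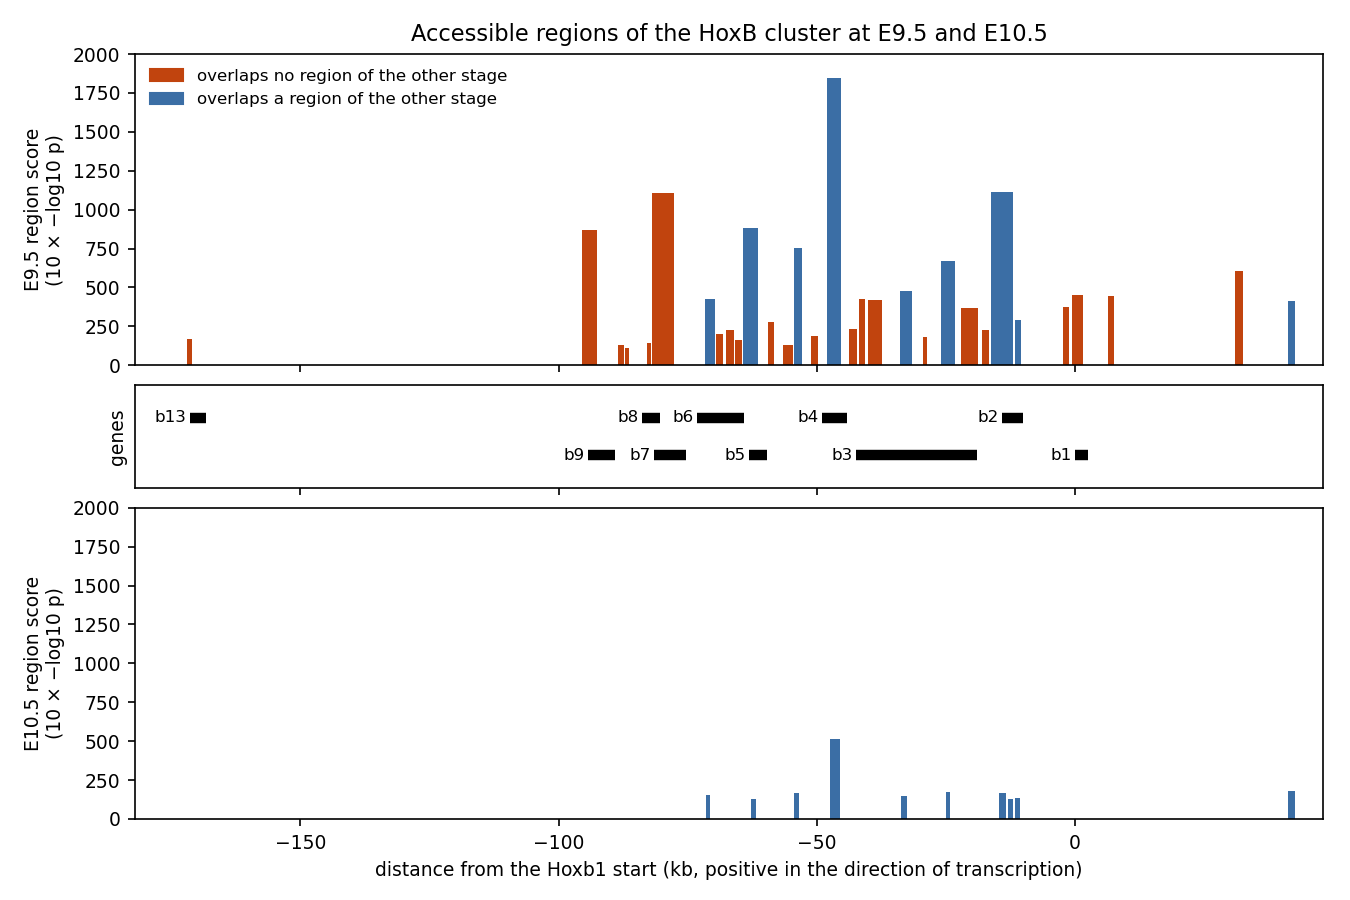
Position and score of every HoxB region, with E9.5 above and E10.5 below the gene models; x is the distance from the Hoxb1 start in kb, bar width is region width (at least 0.4 kb), bar height is the score (10 × −log10 p) and colour marks overlap with the other stage. The 10 E10.5 regions lie between Hoxb6 and the outermost region, centred 41.9 kb downstream of the more upstream Hoxb1 start, from which x is measured. Their scores were 126.96 to 512.81 and, since the depth of each list is unknown, bar heights are not compared between the panels.

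The difference was also visible in the amount of DNA covered. From the start of Hoxb13 to the end of Hoxb1 (mm9 chromosome 11, 96055630 to 96229570, 173.9 kb), E9.5 regions covered 54192 bp, or 31.2%, and E10.5 regions covered 10549 bp, or 6.06%. All of the E10.5 bases lay within E9.5 regions. In the gene-dense stretch from Hoxb9 to Hoxb1 (96.8 kb) the covered shares were 53.3% and 10.2%, a ratio of 5.24. Over the whole lists the same ratio of covered bases was 1.02, and 67.9% of the E10.5 bases lay in E9.5 regions. In the 77.1 kb from the Hoxb13 start to the Hoxb9 start, which hold few annotated genes, E9.5 regions covered 3.35% and E10.5 regions 0.918%. The E9.5 bases include parts of the regions over the Hoxb13 and Hoxb9 starts. The only region centred in this stretch was, in each list, the shared one at the gene Gm53. The E9.5 regions of the gene-dense stretch were packed closely: its 27 gaps between neighbouring regions had a median of 698 bp, against 21.1 kb over the E9.5 list, and 10 of them were at most 500 bp wide (37.0%, against 4.54% over the list). Dense E9.5 coverage was not particular to HoxB. From the first to the last gene end, E9.5 regions covered 56.5% of HoxA, 33.1% of HoxC and 46.5% of HoxD. Gaps in those clusters were not measured.

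The regions found at both stages were not spread evenly along the row. The longest stretch without an E10.5 region was one of 184.7 kb around Hoxb13, which ended at the neighbouring gene Gm53 and held 4 E9.5 regions, that of Hoxb13 among them, covering 3.4 kb. It began outside the cluster, at 95937918, and the Hoxb13 start is at 96055630, so only a part of it belongs to the row. From Gm53 to Hoxb6, 32.4 kb without an E10.5 region held 5 E9.5 regions covering 9.9 kb, at Hoxb9, Hoxb8 and Hoxb7. Downstream, 51.9 kb from Hoxb2 to the outermost Hoxb1 region held 4 E9.5 regions covering 6.0 kb. Between Hoxb6 and Hoxb2 no such stretch was longer than 11.8 kb. By groups of genes, 13 of 20 E9.5 regions of Hoxb1 to Hoxb4 were E9.5-specific (65.0%, Wilson interval 43.3 to 81.9), and so were 9 of 11 of Hoxb5 to Hoxb9 (81.8%, 52.3 to 94.9) and the 1 region of Hoxb13. The intervals of the first groups overlap widely, and counts of this size do not order them.

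**Figure D2:**
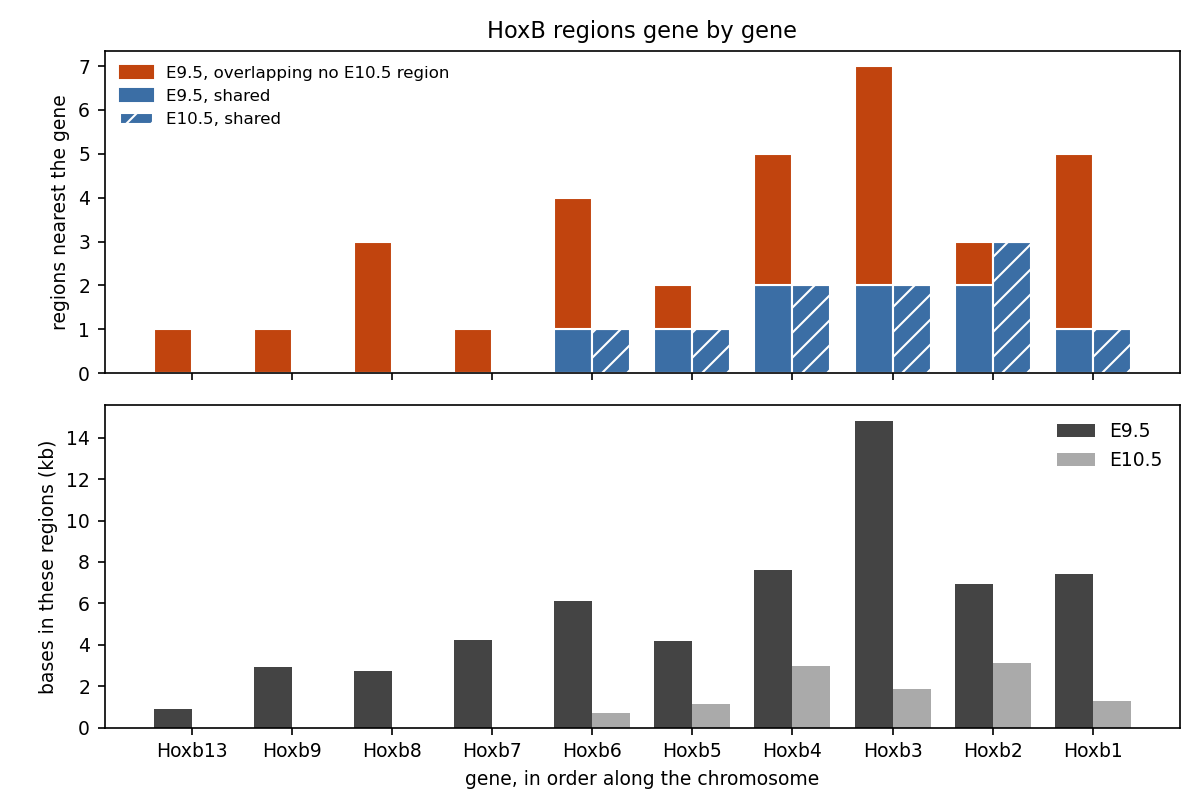
Number of regions nearest each HoxB gene (upper panel) and kb covered by these regions (lower panel), with the E9.5 bar on the left and the E10.5 bar on the right of each gene; colour marks overlap with the other stage. Hoxb13, Hoxb9, Hoxb8 and Hoxb7 have E9.5 bars alone, and Hoxb3 has the most regions (7) and bases (14.8 kb) at E9.5.

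Hoxb13, the gene furthest to the 5' side, is used late and in the tail end of the embryo. It had 1 region, at its start (96055098 to 96056007, centre 78 bp before the start), with an E9.5 score of 171.49 and no E10.5 counterpart. The score is 10 × −log10 of the p-value given by the peak caller, and it grows with sequencing depth as well as with enrichment. A score is therefore also given as a percentile, the percent of regions in the same list scoring up to that value, and Hoxb13 stood at percentile 34.4. The nearest E10.5 region was 66.6 kb away, the longest such distance in the cluster.

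Hoxb9, which acts with its paralogues in setting up the front-to-back pattern of the early forelimb bud, had a single broad region. It spanned 2950 bp over the start and the coding sequence (96131590 to 96134539), scored 870.02 at E9.5 (percentile 77.2) and overlapped nothing at E10.5. Its paralogues each had a region in both lists: the top scores, E9.5 first, were 521.26 and 1007.68 for Hoxa9, 470.84 and 312.04 for Hoxc9, and 851.44 and 1051.27 for Hoxd9. Hoxb9 was thus the only gene of its paralogue group without any E10.5 region nearest to it. Hoxc9 was like Hoxb9 in having a region within 2.5 kb of a start at E9.5 and none at E10.5, and 1 of its 2 E9.5 regions was E9.5-specific.

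Hoxb8, a trunk gene, had 3 regions, all E9.5-specific and all weak. They scored 130.85, 109.34 and 142.23, with the first pair 4.08 and 2.95 kb before a start and the last in the coding sequence. The region with 109.34 was the lowest-scoring HoxB region of the E9.5 list. Hoxb7 lies next to it and its annotated start falls before the end of Hoxb8. Its single region (96145105 to 96149359) was 4255 bp wide, reached an E9.5 score of 1108.12 (percentile 81.9) and was the highest-scoring E9.5-specific region of the cluster. This region also covered the downstream end of Hoxb8, so that gene was not covered by weak regions alone, and it went to Hoxb7 by the nearest start. The nearest E10.5 region was 6.32 kb away. Hoxa7, its only paralogue in the mouse, had a top score of 885.87 in the earlier list and of 1269.23 in the later one. For the Hoxb8 paralogues the top scores, E9.5 first, were 402.72 and 222.4 for Hoxc8 and 1182.94 and 468.73 for Hoxd8, so both were lower in the E10.5 list. Hoxc8, like Hoxb8, had a region within 2.5 kb of a start at E9.5 and none at E10.5.

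Hoxb6, expressed in lateral mesoderm, is the first gene in the row with an E10.5 region. It had 4 E9.5 regions, with scores of 423.06, 199.78, 225.29 and 159.26 along the chromosome, and the first alone was shared. This shared region lay in a Hoxb6 intron and scored 152.71 at E10.5. The region at the downstream start of the gene (centre 27 bp after it, score 225.29) was E9.5-specific. Hoxb5, whose loss in the mouse shifts the position of the shoulder, had a region of 2952 bp at its start that scored 880.58 at E9.5. At E10.5 a region of 1139 bp inside it scored 127.45, with its centre 896 bp after the start. A second Hoxb5 region, 4.32 kb after the start, scored 279.8 and was E9.5-specific. The noncoding antisense transcript 0610040B09Rik runs across both genes and overlapped 6 E9.5 regions and 2 E10.5 regions.

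Hoxb4, a paralogue group 4 gene also studied in blood stem cells, held the strongest region of the cluster at both stages. At 96178978 to 96181744, over a coding exon and the intron, the score was 1846.34 at E9.5 (percentile 91.6). The E10.5 region inside it scored 512.81 (percentile 72.0) and was the only HoxB region in the higher-scoring 50% of the E10.5 list. Its centre lay 2599 bp after the Hoxb4 start. Another 4 regions lay before the start, scoring 133.28, 129.23, 755.75 and 189.99 at E9.5. Of these the third, centred 4.55 kb upstream, was shared, with 167.67 at E10.5. The microRNA gene Mir10a, between these and the strongest region, overlapped no region at either stage. The top scores of the paralogues, E9.5 first, were 1808.31 and 139.59 for Hoxa4 and 1418.82 and 801.95 for Hoxc4, and Hoxd4 had 846.59 and no E10.5 region.

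Hoxb3, which patterns the hindbrain and pharyngeal region, is the longest gene of the cluster and has 4 annotated starts. It had 7 E9.5 regions (233.94, 425.91, 422.19, 476.53, 180.82, 672.88 and 367.08 along the chromosome), of which 5 were E9.5-specific. The shared pair were the intronic region scoring 476.53, with 147.0 at E10.5, and the region over an internal start scoring 672.88, with 170.84 at E10.5. The regions over the other starts of the gene were E9.5-specific, so a single Hoxb3 start was covered at E10.5. Hoxb2, another hindbrain gene, had the highest shared fraction of E9.5 regions, with 2 of 3. The region over its start was 4299 bp wide, the widest of the cluster, and scored 1116.0 (percentile 82.1). At E10.5 it was represented by 2 narrower regions, of 1265 and 925 bp, that scored 164.26 and 126.96. A region at the 3' end of the gene scored 290.9 in the E9.5 list, its E10.5 counterpart scored 136.94, and a region 3.25 kb before the start (224.14) was E9.5-specific.

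Hoxb1, which specifies a hindbrain segment and is the 3' end of the cluster, had 5 E9.5 regions, with 4 E9.5-specific. The region over its start (96226517 to 96228546) scored 449.26, and a region 1.78 kb upstream scored 372.91. Downstream of the gene lay regions at 6.52 kb (447.89), 31.2 kb (608.73) and 41.4 kb (414.3) from the nearest start. Only the outermost was shared, with an E10.5 score of 177.64, and it was the pair with the most similar widths in the cluster (1351 and 1291 bp). Its paralogue Hoxd1 had a top score of 621.84 in the earlier list and of 240.37 in the later one.

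With promoters counted by the distance of a region's centre to a start, 10 of 10 HoxB genes had a region within 2.5 kb in the E9.5 list, and 4 of 10 had one in the E10.5 list (Hoxb6, Hoxb5, Hoxb3 and Hoxb2). Of all 22380 protein-coding genes, 65.1% had one in the E9.5 list and 62.5% in the other. Hoxb13, Hoxb9, Hoxb8, Hoxb7, Hoxb4 and Hoxb1 had one at E9.5 and none at E10.5, a state found in 3.75% of all genes. Hoxb4 belongs there by a narrow margin, since its E10.5 region was centred 2599 bp from the start, and measuring from the edge of a region raised the E10.5 count to 5. Hoxb6 counts at E10.5 by a narrow margin too, through an intronic region centred 2253 bp from a start. A limit of 1 kb gave 8 genes at E9.5 and 3 at E10.5. Using only the most upstream start of each gene gave 9 and 3. These counts use the overlaps that led to the choice of the cluster and are no independent evidence.

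The E9.5-specific regions scored lower, in the median, than the shared ones. Their median score was 225.29 (95% order-statistic interval 171.49 to 422.19), with a median width of 1261 bp, and that of the shared E9.5 regions was 672.88 (414.3 to 1116.0), with a median width of 2310 bp. Over the whole E9.5 list the corresponding medians were 145.08 and 432.78. Of the 23, 10 lay in the higher-scoring 50% of the E9.5 list and 8 contained an annotated HoxB start. Among E9.5 regions scoring from 400 to 1200, 7 of 14 HoxB regions overlapped no E10.5 region, where 9.20% of the list's regions in that range did so. The distance from an E9.5-specific region to the nearest E10.5 region ran from 0.228 to 66.6 kb with a median of 3.5 kb. It was within 500 bp for 1 of the 23, within 2.5 kb for 9, and over 10 kb for 6.

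The 10 regions found at E10.5 were compared with their E9.5 partners by percentile, which places each region within its own list. All 10 stood higher in the E9.5 list, by 19.7 to 61.1 percentile points with a median of 36.4. Over all 30375 shared E10.5 regions, 51.1% had the higher percentile at E9.5, and the median difference was 0.29 points. That background was not matched for score: the median E10.5 percentile was 32.4 for the HoxB regions and 62.9 for all shared regions. A region low in its list has more room to stand higher in the other. All 10 also lay wholly within their E9.5 partner, as 46.8% of all shared E10.5 regions did, and for 6 of 10 the partner was at least 2 times as wide, as for 5.28% of all. The partner was 2.40 times as wide in the median, with a range of 1.05 to 4.65. The largest percentile difference was that of the second Hoxb2 region and the smallest that of the strong Hoxb4 region. The pair of Hoxb2 regions share 1 partner and are not independent points.

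**Figure D3:**
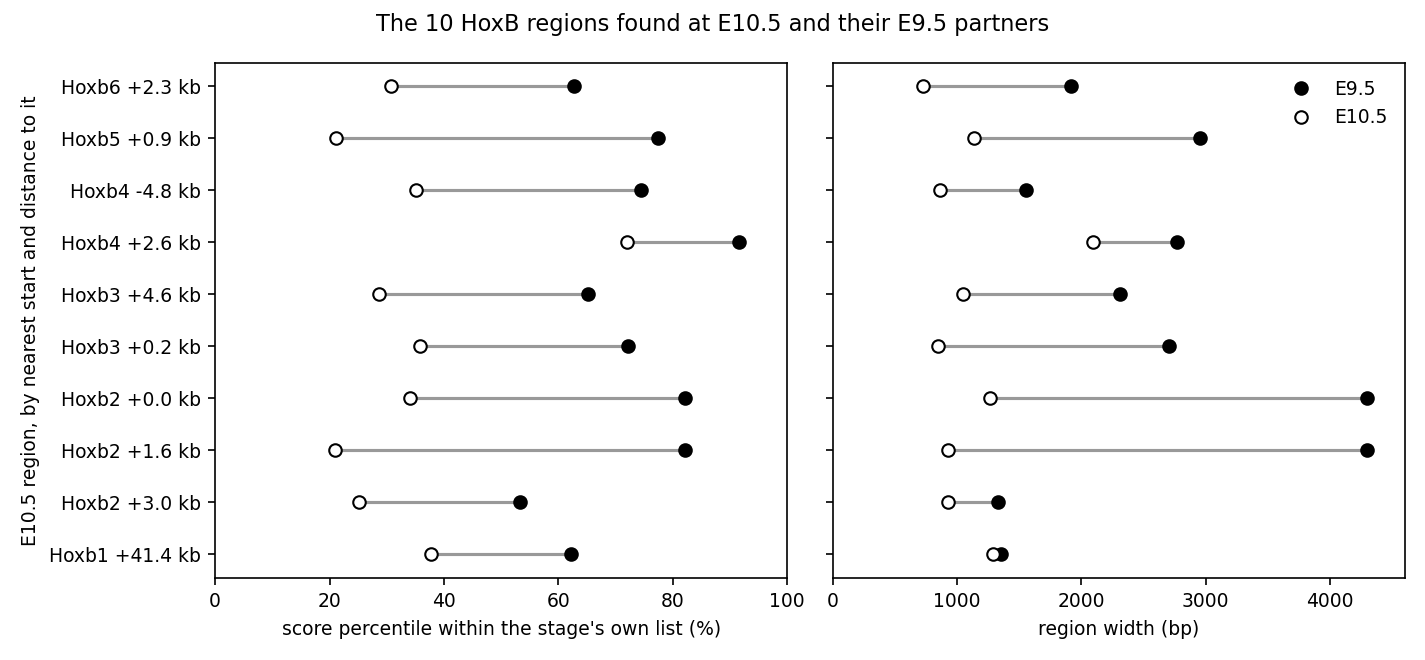
Score percentile (left, in percent of the stage's own list) and width (right, in bp) of the 10 E10.5 HoxB regions (open circles) and of the E9.5 region each overlaps (filled circles), labelled by the nearest gene and the distance of the E10.5 centre to its start. Every filled circle lies to the right of its open circle, and in the right panel the outermost Hoxb1 pair nearly coincides.

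The other Hox clusters were taken by the same rule. The E9.5-specific share was 10 of 27 regions for HoxA (37.0%, Wilson interval 21.5 to 55.8), 10 of 28 for HoxC (35.7%, 20.7 to 54.2) and 7 of 21 for HoxD (33.3%, 17.2 to 54.6), each below the 71.9% of HoxB. The interval of HoxB begins at 54.6, about where those of the other clusters end. Regions of a list are not replicates, and the difference between clusters was not tested. At E10.5, regions without an E9.5 partner were 2 of 23 for HoxA, 0 of 21 for HoxC and 4 of 19 for HoxD. A low share at E10.5 was therefore also seen in HoxA and HoxC. Covered bases at E9.5 exceeded those at E10.5 by a factor of 1.84 for HoxA, 2.01 for HoxC and 1.76 for HoxD, against 5.14 from Hoxb13 to Hoxb1. Genes with a promoter-proximal region numbered, E9.5 first, 11 and 10 of 11 for HoxA, 8 and 6 of 9 for HoxC, and 9 and 8 of 9 for HoxD. Among shared regions, the percentile was higher at E9.5 for 14 of 21 HoxA, 19 of 21 HoxC and 10 of 15 HoxD pairs. The median difference was 27.0 points in HoxA, 8.68 in HoxC and 13.5 in HoxD, against 36.4 in HoxB. Nesting in the E9.5 partner was as complete in HoxC (21 of 21) as in HoxB, with 14 of 21 in HoxA and 8 of 15 in HoxD. The partner was at least 2 times as wide for 11 of 21 HoxA regions, with a median ratio of 2.31, for 7 of 21 in HoxC and for 3 of 15 in HoxD. Within the cluster limits, the E10.5 bases lying in E9.5 regions were 100% for HoxC, 86.7% for HoxA and 75.1% for HoxD. Nesting is thus shared with HoxC, and the greater width with HoxA. A higher median percentile at E9.5 was seen in every Hox cluster, and HoxA came nearest to HoxB.

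**Figure D4:**
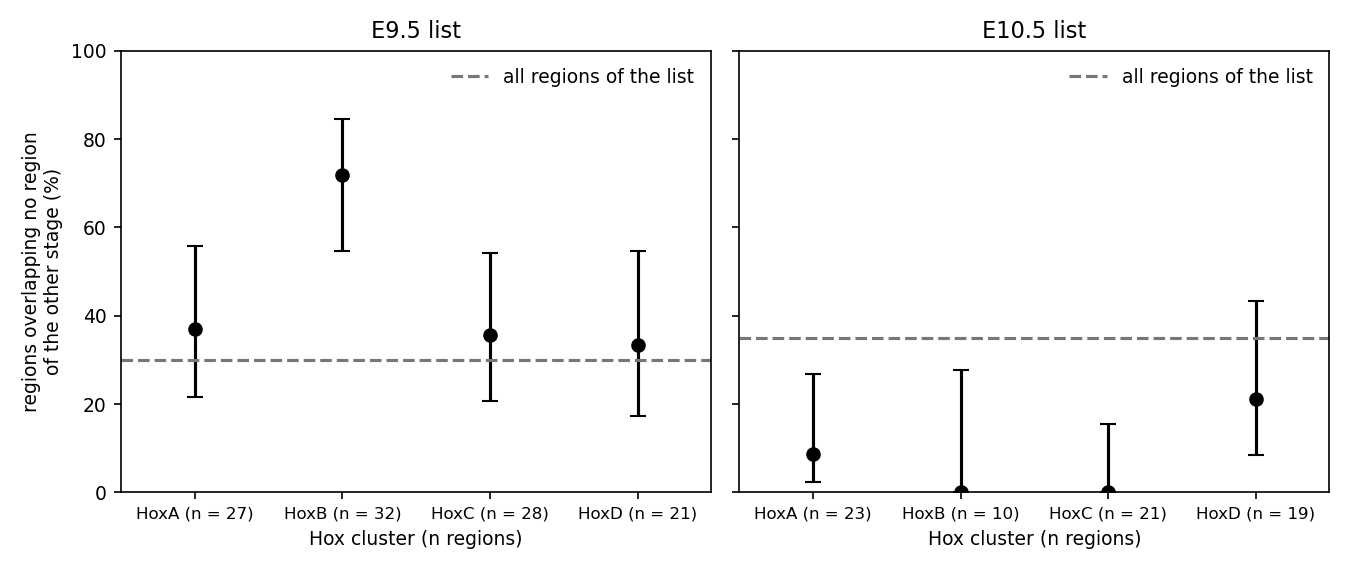
Percent of regions that overlap no region of the other stage, in each Hox cluster, for the E9.5 list (left) and the E10.5 list (right). Points are shares, bars are 95% Wilson intervals, n is the number of regions and the dashed line is the share over the whole list; HoxB is at 71.9% on the left and at 0 on the right.

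Beyond the cluster, coverage also differed in the flanks. In the 250 kb upstream of Hoxb13, E9.5 and E10.5 regions covered 5.73% and 3.23%, and in the 250 kb downstream of Hoxb1 they covered 4.35% and 1.29%. Of the E9.5 regions centred there, 6 of 11 upstream and 7 of 9 downstream were E9.5-specific, against 29.9% of the list. The downstream ones include regions assigned to Hoxb1. Of the E9.5 regions nearest Skap1, the next gene downstream, 9 of 13 were E9.5-specific. A high E9.5-specific share was thus also seen beside the cluster. Just outside the members lay a shared region at Gm53, between Hoxb13 and Hoxb9, with scores of 351.18 and 81.19. On the far side of the outermost Hoxb1 region lay a shared region (248.64 in the E9.5 list, 172.43 in the other). Its E9.5 centre was 56.2 kb from the more upstream Hoxb1 start and 42.7 kb before Skap1, to which it was assigned. Upstream of Hoxb13 the first region outside was assigned to Ttll6, scored 165.07 and was E9.5-specific.

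Genes that act on Hox clusters or with HOX proteins (21 genes, among them the Cdx, Meis and Pbx families and genes of retinoic acid signalling) had 62 of 145 E9.5 regions without an E10.5 partner (42.8%) and 41 of 131 E10.5 regions without an E9.5 partner (31.3%). Of the 21, 20 had a promoter-proximal E9.5 region and 16 an E10.5 one. The 29 genes of the other clusters together had 27 of 76 (35.5%) and 6 of 62 (9.68%). Over all regions of the E9.5 list the share was 29.9%, and over the E10.5 list it was 35.0%.

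Regions near trunk marker genes were E9.5-specific more often than the list as a whole. Regions of 17 genes marking somite, neural tube and intermediate or lateral mesoderm were E9.5-specific in 62 of 133 cases (46.6%, Wilson interval 38.4 to 55.1, against 29.9% of the whole list), and 32 of their 104 E10.5 regions lacked an E9.5 partner (30.8%, 22.7 to 40.2, against 35.0%). Within them the E9.5-specific regions were 22 of 54 for somite, 23 of 49 for neural tube and 17 of 30 for intermediate and lateral mesoderm genes. At E10.5 the regions without an E9.5 partner were 15 of 48, 6 of 33 and 11 of 23 in the same order, so that intermediate and lateral mesoderm genes, at 47.8%, lay above the 35.0% of the whole list at that stage too. Regions of 13 limb bud genes were E9.5-specific in 24 of 96 cases (25.0%, Wilson interval 17.4 to 34.5) and lacked an E9.5 partner in 48 of 123 at E10.5 (39.0%, 30.9 to 47.9), and both intervals hold the share of the whole list. Blood and vessel genes had 3 of 18 and 10 of 25. The part of trunk cells in the HoxB counts was not tested.

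The base composition of HoxB regions was near that of the list at E9.5. In a window of about 300 bp around the centre, the median GC content was 53.7% over the HoxB regions at E9.5 and 54.2% over the E9.5 list, and 52.2% and 51.8% for the E9.5-specific regions of each. At E10.5 it was 56.1% for HoxB and 50.5% for the list. The CDX letters TTTATG were found in this window in 8 of 32 E9.5 HoxB regions (25.0%, against 10.8% of the list) and in 5 of 10 at E10.5 (against 16.2%). Over whole regions the difference was smaller: 23 of 32 at E9.5 (against 43.7%) and 6 of 10 at E10.5 (against 47.9%). Matches per 10 kb were 6.91 in HoxB and 4.75 in the list at E9.5, and 8.08 and 6.29 at E10.5. All 10 E10.5 regions lay within E9.5 partners, so the counts of the stages are not independent. The CDX letters were also found in the 300 bp before the most upstream start of 5 of 10 HoxB genes, against 12.4% of 22380 protein-coding genes. The Hoxb4 sequence above holds a pair of CDX matches, while that before Hoxb1 holds none of the marked motifs.

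The other motifs were counted in the same windows. At E9.5, PBX-HOX letters were found in 3 of 32 regions (4.95% of the list), MEIS letters in 5 (21.5%) and the SMAD GC box in 7 (13.0%). The SMAD palindrome GTCTAGAC and direct repeats of AGGTCA or AGTTCA spaced by 2 or 5 bases, the retinoic acid response elements, were found in 0 of 32. They are rare in the list as well, at 0.284%, 0.108% and 0.0798% of E9.5 regions, so that a count of 0 shows nothing about HoxB. These are matches of letters on both strands and not sites of binding.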

How the data were processed

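Adapters were inserted with the transposase, and the libraries were sequenced, by the submitters in 2 replicates per stage. Reads were mapped to mm9 with Bowtie 1.1.0, peaks were called with MACS 1.4 without a control, and replicates were combined with MSPC (stringent p 1e-10, weak p 1e-06) into 1 list per stage. The deposited score is 10 × −log10 of the best p-value given by the peak caller, as far as the study's methods and the values show, and the authors' lists hold no read counts, so depth per sample is unknown. Scores run from 60.44 to 3233.06, and stage differences in depth can change which weak regions are listed.

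Regions were assigned to the nearest of 70064 starts of 22380 protein-coding genes (GENCODE vM1 on NCBIM37, the assembly behind mm9). No region, 0 in either list, extended beyond its chromosome. A partner is a region of the other list overlapping by at least 1 bp, and the best-scoring partner was used for pairs. Shares have 95% Wilson intervals and medians have order-statistic intervals. With 1 list per stage, no test between stages was possible. The named genes are all 10 HoxB genes, genes lying between them, the first gene on each flank and paralogues, of which not every one is reported here. The members, gene lists, motifs and choices were made with earlier results of these data known. Sox1 matched no gene of the annotation and was left out, and Foxf1 was matched as Foxf1a. Computations used Python 3.11.15, pandas 2.3.3 and numpy 2.4.6, and the scripts were tested on simulated lists. Alternatives changed the overlap, the distance, the starts used and the score minimum.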

Additional observations from a re-analysis of the deposited data

How the results depend on the processing

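Each of the 10 summary values for HoxB was recomputed under other choices, 54 alternatives in all, of which 6 were chosen after seeing the data. The value stayed within its counting interval or within 1.5 times in 45 of them and moved in 9. A reversal of direction was not checked for. A reciprocal overlap of at least 50% raised the E9.5-specific share to 87.5% (33.4% of the list) and the E10.5-specific share to 60% (39.3% of the list), because the E10.5 regions are narrow parts of wide E9.5 regions. With the higher-scoring 50% of each list alone, HoxB had 19 E9.5 regions, 94.7% of them E9.5-specific (25.9% of the list), and 1 E10.5 region, in Hoxb4, with a score of 512.81, a coverage of 1.21% and 0 genes with a promoter-proximal region. Set against the whole E10.5 list instead, 52.6% of these 19 were E9.5-specific (10.8% of the list). Merging regions of a list within 500 bp left 14 of 22 E9.5 regions (63.6%) without an E10.5 partner, against 28.9% of the merged list.

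No paired analysis was possible because the replicates of a stage were merged before deposit, and leaving out a replicate could not be run for the same reason. Depth is unknown, so an absent region means that none passed the peak caller's and MSPC's limits, not that the chromatin was closed. Scores of different stages were compared only as percentiles or side by side.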
